A study of Mus musculus with 4 samples.

Results

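The miR-30 family is a group of microRNAs (miRNAs), short RNAs that guide Argonaute proteins to messenger RNAs and lower the output of those messages. Its 5p arms share a seed, the stretch near the 5′ end that pairs with a target, and are therefore thought to reach overlapping sets of messages. Known targets include Beclin 1, a protein that starts autophagy, and the transcription factor Snail. Members were taken by name, as every row of the deposited table called miR-30 followed by a letter from a to f. There were 10 such rows among the 389 mature miRNAs listed, 5 of them 5p arms and 5 of them 3p arms. MiR-30f, the 3p arm of miR-30d and miR-384-5p, which has the same seed, were not analysed here.

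The study asked whether heat stress alters the miRNAs that astrocytes release in exosome-enriched preparations, which are vesicles pelleted from culture supernatant by ultracentrifugation. The cells were C8-D1A, an established mouse line of cerebellar astrocytes (genotype WT), so all libraries come from 1 cell line. The control group (2 libraries) was kept at 37 °C, for 8 h according to the sample labels and for 2 h according to the culture methods, and the heat stress group (2 libraries) was held at 42 °C for 2 h and rewarmed at 37 °C for 6 h. Within a group the libraries are described as biological replicates. Both groups were grown with fetal bovine serum. The values of such bulk preparations were normalized per library and do not give the number of vesicles. Nor can the amount of a miRNA per vesicle be read from them.

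Each miRNA had 1 normalized value per library, which is a whole multiple of a fixed step of 1.35 and 0.782 in control replicates 1 and 2 and of 0.790 and 1.00 in heat stress replicates 1 and 2. The steps of all miRNAs add up to 43675, 95020, 100933 and 63338 in the same order. These would be the reads on miRNAs were each step a read listed under 1 name only. That may not hold, as miR-486a and miR-486b had the same ratio of 5p to 3p arm in every library. If steps are reads, a miRNA listed at 0 could still have 3 reads, or a normalized value of 4.06, 2.35, 2.37 and 3.00, respectively. Limits and intervals of this kind cover counting error only. Control replicate 2 and heat stress replicate 2 did not meet the criterion applied for taking steps as reads.

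The cell type was checked with marker miRNAs. MiR-125b-5p, which is abundant in neural cells, had values of 2134 and 1612 in control replicates 1 and 2, and of 2402 and 3254 in the heat-stressed pair. MiR-9-5p, a miRNA of the neural lineage, was at 122 in control replicate 1, at 138 and 48.0 in the heat stress libraries and at 0 in control replicate 2. MiR-9-3p had values of 56.9 and 0 in control replicates 1 and 2, and of 4.74 and 0 in the heat-stressed pair. Control replicate 2 was thus at 0 for both arms of miR-9, and counts past the threshold are also given without it. MiR-124-3p, a marker of neurons, was at 4.06, 0, 0 and 3.00, which is within the limit of 3 reads. The 4 neural markers summed to 2316, 1612, 2544 and 3305, mostly from miR-125b-5p, and 1 of them was above 0 in every library. Markers of other tissues were present. Of the 5 blood cell markers, 4 were listed and 3 were above 0 in every library, with summed values of 975 and 591 in the control group and 819 and 593 after heat stress, mostly from miR-486a-5p (933, 553, 777 and 531), while miR-223-3p was at 0 in 3 libraries. The liver miRNA miR-122-5p had values of 90.8 and 33.6 in control replicates 1 and 2, and of 20.5 and 76.1 in the heat-stressed pair. Of the 3 muscle markers, miR-1a-3p (24.4, 73.5, 3.16 and 0) and miR-206-3p (14.9, 34.4, 19.0 and 27.0) were listed, with sums of 39.3, 108, 22.1 and 27.0. The endothelial miR-126a-3p had values of 2.71 and 0 in control replicates 1 and 2, and of 32.4 and 8.01 in the heat-stressed pair. The part of these sources in the miR-30 values was not tested.

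The sequences show why some members are hard to separate from each other. RefSeq's table for GRCm38.p6 matched 7 of the 10 members, and they are shown because closely similar members differed between the groups in opposite directions. Capitals mark the seed, bases 2 to 8 from the 5′ end.
miR-30c-5p: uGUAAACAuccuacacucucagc
miR-30a-5p: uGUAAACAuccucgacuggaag
miR-30e-5p: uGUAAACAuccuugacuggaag
miR-30a-3p: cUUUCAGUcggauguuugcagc
miR-30e-3p: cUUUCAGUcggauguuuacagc
miR-30c-1-3p: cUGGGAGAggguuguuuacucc
miR-30c-2-3p: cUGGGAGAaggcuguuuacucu

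These 7 members fall into 3 seed groups. The seed GUAAACA of the 5p arms was found for 4 of the 1679 mature names in the RefSeq table, the 3 shown here and miR-384-5p. MiR-30d-5p, miR-30b-5p and miR-30b-3p had no sequence in that table, so their seeds could not be looked up and are not in these counts. The seed UUUCAGU of miR-30a-3p and miR-30e-3p was found there for these 2 names, and UGGGAGA for the 3p arms of both miR-30c hairpins and miR-6958-5p. MiR-30a-5p and miR-30e-5p share their first 12 bases and differ at 1 position in all, C13U, where the first letter is the base of miR-30a, the number counts from its 5′ end and the last letter is the base of miR-30e. Their 3p arms likewise differ at 1 position, G18A. MiR-30c-1-3p and miR-30c-2-3p share their first 8 bases and differ at 3 positions (G9A, U12C and C22U). How reads were divided among such near-identical members is not given in the sources used here, so the separate values of miR-30a and miR-30e are uncertain.

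The hairpins lie in 3 pairs by the positions of GENCODE M21 (build GRCm38, and the authors may have used another). Mir30a (chr1:23272269-23272339) and Mir30c-2 (chr1:23291701-23291784) are 19361 bases apart on the plus strand of chromosome 1, the first outside any other annotated gene and the second in an exon of the long non-coding RNA gene Gm27028. Mir30c-1 (chr4:120769534-120769622) and Mir30e (chr4:120772606-120772697) are 2983 bases apart on the minus strand of chromosome 4, both in introns of Nfyc, which encodes a subunit of the transcription factor NF-Y. Mir30b (chr15:68337415-68337510) and Mir30d (chr15:68341208-68341289) are 3697 bases apart on the minus strand of chromosome 15, in exons of the non-coding transcripts Gm26621 and Gm20732, respectively. Mir30d also lies in an exon of Gm37296 on the same strand. MiR-30c-5p has the same sequence at both of its loci, so its value cannot be assigned to one of them.

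The 5p arm of miR-30d, listed as mmu-miR-30d-5p, made up most of the family in every library. Its normalized value was 503 and 379 in control replicates 1 and 2 and 456 and 440 in heat stress replicates 1 and 2. These are 371, 485, 577 and 440 steps, and the mean over the 4 libraries was the 30th highest of all 389 miRNAs. The heat stress libraries lay between the control libraries, so the groups overlapped. The mean was 441 ± 87.1 (SD, n = 2) for controls and 448 ± 11.0 (SD, n = 2) for the heat stress group. Differences were taken between group means of log2(value + 1), where adding 1 understates changes of low values, and the study's threshold, a change above 2-fold with p below 0.05, was applied here to limma's p before adjustment. For miR-30d-5p the log2 change was 0.037 (standard error 0.840), with an adjusted p of 0.997 from limma with Benjamini-Hochberg adjustment. It was -0.063 with scaling by library totals and -0.17 without control replicate 2, so its sign is not resolved. The 95% interval of this change ran from -2.13 to 2.20, and from -0.996 to 1.07 when the variance prior followed the mean. A change of up to about 2-fold in either direction therefore lies within the narrower interval, and equality of the groups is not shown. The 2 control libraries differed by 1.32-fold. If steps are reads, their exact Poisson intervals in normalized units were 453 to 556 and 346 to 415. MiR-30d-5p held 67.3% and 69.0% of the summed family value in the control libraries and 69.4% and 67.1% after heat stress.

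MiR-30c-5p and miR-30a-5p came next, in this order, in each of the 4 libraries. MiR-30c-5p had values of 106 and 65.7 in control replicates 1 and 2, and of 98.0 and 84.1 in the heat-stressed pair. The groups overlapped, since both heat stress values lay between the control values, as for miR-30d-5p. Its log2 change was 0.12 (standard error 0.860, adjusted p = 0.984 from limma) and -0.22 without control replicate 2. MiR-30a-5p, the arm known to repress Beclin 1, had values of 40.6 and 38.3 in control replicates 1 and 2, and of 29.2 and 45.0 in the heat-stressed pair. Heat stress replicates lay on either side of both controls, and the log2 change was -0.12 (standard error 0.852, adjusted p = 0.984 from limma) and 0.19 without heat stress replicate 1. The lowest value of miR-30d-5p lay above the highest of miR-30c-5p, whose lowest lay above the highest of miR-30a-5p, although the gap between the latter pair was smaller in control replicate 2 and heat stress replicate 2 than the range of miR-30c-5p over the libraries. This order is one of normalized values, with no correction for length, and need not be one of molecules.

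The remaining members had mean values of at most 21.2, and their order was not the same in all libraries. MiR-30a-3p had values of 29.8 and 19.6 in control replicates 1 and 2, and of 20.5 and 15.0 in the heat-stressed pair. Heat stress replicate 1 lay above control replicate 2, and the log2 change was -0.44 (standard error 0.861, adjusted p = 0.960 from limma). It ran from -0.73 without control replicate 2 to -0.15 without control replicate 1. Of all 10 members, 6 were above 0 in every library, against 141 of the 389 listed miRNAs (36.2%). The 4 that were at 0 somewhere were both miR-30b arms and the 3p arms of miR-30c-1 and miR-30c-2.

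**Figure D1:**
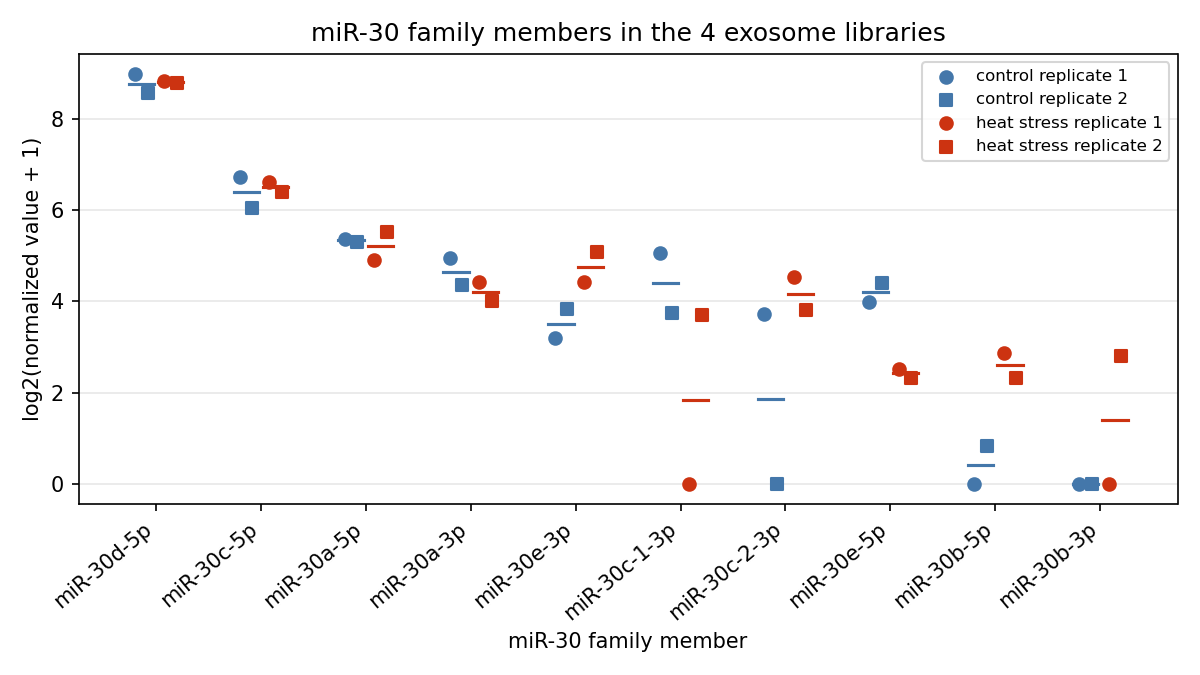
Each point is 1 library, with log2(normalized value + 1) on the vertical axis and the 10 members on the horizontal axis in order of their mean; circles are replicate 1, squares are replicate 2, and bars are group means. MiR-30d-5p lies above all other members in the 4 libraries, whereas the control and heat stress libraries of miR-30e-5p and miR-30e-3p are separated in opposite directions.

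The 2 arms of miR-30e differed between the groups in opposite directions, under each scaling tried. MiR-30e-5p had values of 14.9 and 20.3 in control replicates 1 and 2, and of 4.74 and 4.00 in the heat-stressed pair, which is 11, 26, 6 and 4 steps. Both heat stress libraries lay below both controls. The mean was 17.6 ± 3.85 (SD, n = 2) for controls against 4.37 ± 0.522 (SD, n = 2) for the heat stress group. The log2 change of -1.78 (standard error 0.843) had an unadjusted p of 0.0889 and an adjusted p of 0.686 from limma, and did not pass the test. It passed the threshold without control replicate 1 (log2 change -1.99, unadjusted p = 0.0224 from limma), without control replicate 2 (-1.57, unadjusted p = 0.0324) and when a mean value of 10 was required (unadjusted p = 0.0261). In the other settings it was not past the threshold, with an unadjusted limma p from 0.0535 (without heat stress replicate 1) to 0.227 (variance prior that followed the mean). If steps are reads, the ratio of heat stress to control was 0.241 with an exact interval from 0.107 to 0.494, which compares these libraries and does not include the spread between cultures.

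MiR-30e-3p had values of 8.13 and 13.3 in control replicates 1 and 2, and of 20.5 and 33.0 in the heat-stressed pair, or 6, 17, 26 and 33 steps. Here both heat stress libraries lay above both controls. Its log2 change was 1.25 (standard error 0.880), with an unadjusted p of 0.217 and an adjusted p of 0.686 from limma. If steps are reads, the ratio was 2.28, with an exact interval from 1.39 to 3.88 for counting error.

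Within the miR-30e hairpin, the 5p arm was 1.83 and 1.53 times the 3p arm in the control libraries and 0.231 and 0.121 times after heat stress. By the listed values, the more abundant arm was thus the 5p arm in both controls and the 3p arm in both heat stress libraries. If steps are reads, the exact Poisson intervals of the arms overlapped in both controls. They were 7.44 to 26.7 (5p) and 2.98 to 17.7 (3p) in control replicate 1. In control replicate 2 they were 13.3 to 29.8 (5p) and 7.75 to 21.3 (3p), so the order in the controls is not resolved. The intervals did not overlap in the heat stress libraries. Between the groups the log2 ratio of the arms differed by -3.03 (standard error 1.74). Limma, fitted over the 56 hairpins with both arms tested under the same name, gave an unadjusted p of 0.107 and an adjusted p of 0.665. This comparison was added once the values were known. Of the 56 hairpins, 12 (21.4%) had arm ratios that did not overlap between the groups, and 4 (7.14%) were past the threshold. MiR-30e belonged to the former and not to the latter, and ranked 9 by size of the change and 9 by p. Without heat stress replicate 1 the change was -3.45, and without heat stress replicate 2 it was -2.60. Without control replicate 1 it was -2.91 and without control replicate 2 it was -3.14. No call is drawn from these fits. In each of these fits the lone library left in its group is assumed to vary like the others.

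The corresponding ratio for miR-30a, whose arms each differ from those of miR-30e by 1 base, was 1.36 and 1.96 in the control libraries and 1.42 and 3.00 after heat stress. The 5p arm of miR-30a exceeded its 3p arm in all 4 libraries. The change of the log2 ratio was 0.32 (standard error 1.75), with an adjusted p of 0.941 from limma. When the near-identical arms were added up, miR-30a-5p plus miR-30e-5p gave 55.5 and 58.7 in the control libraries and 34.0 and 49.0 after heat stress. These sums were lower in both heat stress libraries, by a larger amount in replicate 1. That of heat stress replicate 2 (49.0) lay near that of control replicate 1 (55.5). MiR-30a-3p plus miR-30e-3p gave 37.9 and 32.9 in the control group and 41.1 and 48.0 after heat stress, which did not overlap as deposited or with totals that left out the 5 most abundant miRNAs, and overlapped with library totals. MiR-30a-3p held 78.6% and 59.5% of the latter sum in the controls and 50.0% and 31.3% after heat stress. No counting interval and no share over all miRNAs was taken for either sum, so their separation is a description only.

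**Figure D2:**
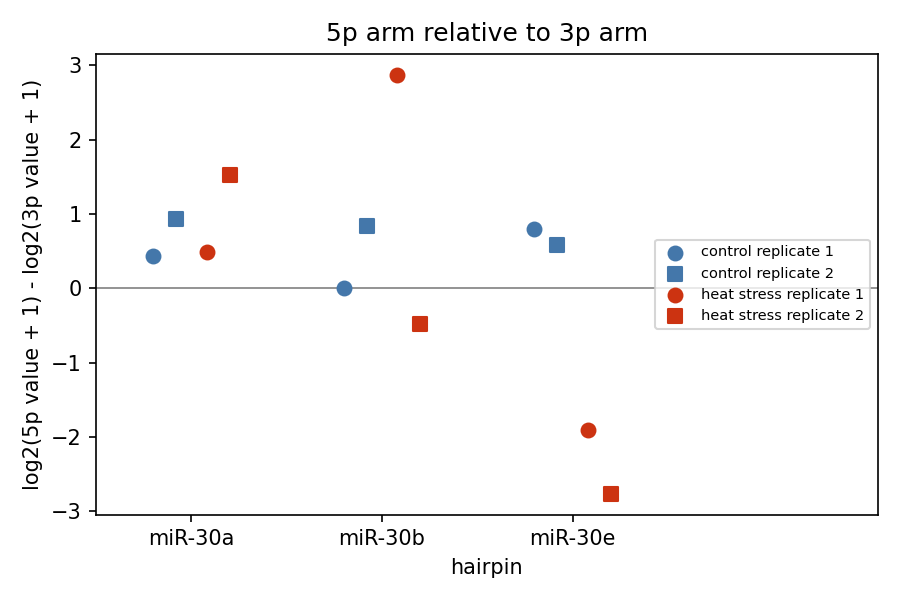
The vertical axis is log2(5p value + 1) less log2(3p value + 1) for the 3 miR-30 hairpins with both arms listed under the same hairpin name. There is 1 point per library (circles are replicate 1, squares are replicate 2). The miR-30c hairpins are not shown, and the value of miR-30c-5p cannot be assigned to one of them. For miR-30e the control libraries are at 0.80 and 0.58 and the heat stress libraries at -1.91 and -2.77, whereas for miR-30a and miR-30b the groups overlap.

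The 3p arms of the 2 miR-30c hairpins also differed in direction, each with 1 library at 0. MiR-30c-1-3p, from an intron of Nfyc, had values of 32.5 and 12.5 in control replicates 1 and 2, and of 0 and 12.0 in the heat-stressed pair. The gap between control replicate 2 and heat stress replicate 2 was small, at 16 against 12 steps. Its log2 change was -2.56 (95% interval from -6.43 to 1.31, adjusted p = 0.686 from limma), and it ran from -4.41 without heat stress replicate 2 to -0.71 without heat stress replicate 1, and was -4.20 with 0.1 added in place of 1. It was not past the threshold in any setting. MiR-30c-2-3p, from the chromosome 1 pair, had values of 12.2 and 0 in control replicates 1 and 2, and of 22.1 and 13.0 in the heat-stressed pair. Control replicate 1 and heat stress replicate 2 stood at 9 and 13 steps, again close together. Its log2 change was 2.31 (standard error 1.46, adjusted p = 0.686 from limma). It was 3.94 after adding 0.1 in place of 1, and 0.45 without control replicate 2. Without control replicate 1 it was 4.17 and past the threshold (unadjusted p = 0.0296 from limma), a difference that then rests on a lone control library at 0. In the other settings it was not past the threshold. These arms added up to 44.7 and 12.5 in the control libraries and to 22.1 and 25.0 after heat stress, and these sums overlapped.

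The arms of miR-30b had the lowest mean values, and its hairpin lies in the same pair as that of miR-30d. MiR-30b-5p had values of 0 and 0.782 in control replicates 1 and 2, and of 6.32 and 4.00 in the heat-stressed pair, which is 0, 1, 8 and 4 steps. Both listed heat stress values lay above both control values, but that of heat stress replicate 2 is below the 4.06 that 3 reads allow in control replicate 1. The log2 change was 2.18 (standard error 0.888). This arm passed the minimum mean value of 1 only through the heat stress group, with a control mean of 0.391. Its limma p (0.0582 unadjusted, 0.686 adjusted) is therefore a description and is not taken as a test. With 0.1 added in place of 1 the log2 change was 4.11, so its size depends on the value added. Without control replicate 2 the log2 change was 2.60. With no filter on low values this arm was past the threshold (unadjusted p = 0.0465 from limma). It was not in the other settings with all 4 libraries that tested it. Their unadjusted limma p ran from 0.0555 (library totals) to 0.277 (variance prior that followed the mean). With 1 step in the controls against 12, the ratio is poorly set, and its exact interval ran from 1.58 to 457 if steps are reads. MiR-30b-3p was seen in heat stress replicate 2 alone, at 6.01 or 6 steps, and was at 0 in the other 3 libraries. Its heat stress mean of 3.00 lies between the values that 3 reads allow in the control libraries (4.06 and 2.35), so no fold is given.

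All 10 members passed the minimum mean value of 1, as did 313 of the 389 miRNAs. Both arms of miR-30b passed only through the heat stress group, with control means of 0.391 and 0, so the filter favoured higher values there, and their difference is a description only. Of these 10, 0 were past the study's threshold in limma's test, and 0 had an unadjusted p under 0.05. The background was 14 of 313 higher (4.47%) and 9 of 313 lower (2.88%). Unadjusted p was under 0.05 for 23 of all miRNAs tested, and Benjamini-Hochberg adjustment left 0 (0%). Some miRNAs had an adjusted p under 0.05 when a heat stress library was left out, but not when a control library was. The lone library of a group is then assumed to vary like the others. The smallest two-sided p of an exact test on 2 and 2 libraries is 0.333, and smaller p-values here come from limma's pooling of variance over miRNAs. The number of members past the threshold was 2 without control replicate 1 (miR-30e-5p and miR-30c-2-3p) and 2 without control replicate 2 (miR-30e-5p and miR-30b-5p). Over all miRNAs the same fits gave 18 higher and 27 lower, and 10 higher and 24 lower. Without heat stress replicate 1 it was 1, miR-30b-3p, which sets a lone library of 6 steps against controls at 0 and is no sign of a fold, with 39 higher and 3 lower over all miRNAs. Without heat stress replicate 2 it was 0, with 37 higher and 12 lower.

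Between the groups, 3 members (miR-30e-3p, miR-30c-2-3p and miR-30b-5p) were higher without overlap, against 16.0% of all miRNAs tested. MiR-30b-5p passed the filter only through the heat stress group. Its place in this and the following counts of higher members is therefore a description only. Another 2 members (miR-30e-5p and miR-30c-1-3p) were lower without overlap, against 11.5% of all miRNAs tested. The other 5 overlapped. Overlap was also counted in other scalings, a count added after seeing the data. With library totals, both miR-30c 3p arms overlapped and miR-30a-3p did not, so that 2 members were higher and 2 lower without overlap, against 12.8% and 11.5% of all miRNAs tested. With totals that left out the 5 most abundant miRNAs, miR-30a-3p and both miR-30c 3p arms did not overlap, which made 3 members higher and 3 lower, against 15.0% and 12.5%. MiR-30e-5p, miR-30e-3p and miR-30b-5p did not overlap in the deposited values or in these scalings. The median log2 change was 0.079 over the 10 members and 0.12 over the 313 miRNAs, with 6 members above 0 and 4 below, against 165 of the 313 above 0. The median of the members was -0.021 with library totals, -0.040 when a mean value of 10 was required, 0.35 without control replicate 1 and -0.16 without control replicate 2, so its sign is not resolved. The median size of the change regardless of sign was 1.32 over the members and 1.16 over all miRNAs.

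Summed over the 10 members, the family had values of 746 and 550 in control replicates 1 and 2, and of 658 and 657 in the heat-stressed pair. The heat stress libraries lay between the control libraries. The mean was 648 ± 139 (SD, n = 2) for controls and 657 ± 0.635 (SD, n = 2) for the heat stress group, a log2 ratio of 0.020. This ratio was -0.11 with library totals, 0.26 without control replicate 1 and -0.18 without control replicate 2, so its sign is not resolved. The 5p arms gave 664, 505, 594 and 578 and the 3p arms 82.6, 45.4, 63.2 and 79.1 across control replicates 1 and 2 and heat stress replicates 1 and 2. Without miR-30d-5p the other 9 members summed to 244 and 171 in the control libraries and 202 and 216 after heat stress. In each of these sums the heat stress libraries lay between the controls.

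The family was a small share of each library. It held 1.26% and 0.740% of the summed normalized values in control replicates 1 and 2, and 0.824% and 1.04% in heat stress replicates 1 and 2. By comparison, the 16 rows of the let-7 and miR-98 family held 14.1% and 24.8% in the control libraries and 22.6% and 18.3% after heat stress. The 4 rows of the miR-148 and miR-152 family held between 20.2% and 31.3%. Across the 4 libraries, the miR-30 share was highest where the shares of these 2 families were lowest, in control replicate 1, which also had the fewest steps. These shares sum to a fixed total, and the part of depth was not tested. In their makeup the 3 families differed, since miR-148a-3p held 99.5% to 99.7% of its family and let-7c-5p between 49.2% and 64.1% of its own, while miR-30d-5p lay between these at 67.1% to 69.4%. The group differences of these leading members were small in relation to their standard errors. The log2 change was 0.23 (standard error 0.903) for miR-148a-3p and 0.36 (standard error 0.981) for let-7c-5p.

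Among the 151 miRNAs outside the family whose mean value reached 10, the 3 whose pattern over the 4 libraries was most like that of miR-30d-5p were miR-615-3p, miR-103-3p and miR-125a-5p. Likeness was measured as the root-mean-square difference of log2(value + 1) after each miRNA's own mean had been subtracted. It was 0.035 for miR-615-3p, which had values of 1565 and 1220 in control replicates 1 and 2, and of 1464 and 1335 in the heat-stressed pair. For miR-103-3p it was 0.11, with values of 19.0 and 12.5 in the control group and 15.8 and 18.0 after heat stress. MiR-125a-5p, at 971, 747, 1072 and 1017, had a difference of 0.13. Within the family, miR-30c-5p was closest to miR-30d-5p at 0.12, and only 2 of the 151 miRNAs were closer. Both miR-30a arms followed at 0.27 and 0.28, with 18 and 19 of the 151 miRNAs closer. The remaining 6 members lay between 0.75 and 1.88, with 84 to 129 of the 151 miRNAs closer. With 4 libraries such likeness is a description only.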

How the data were processed

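Exosomal small RNA was ligated to adapters, amplified, size selected and sequenced by the authors. Their trimmed and filtered reads were aligned with Bowtie according to the methods, whereas the submitters' processing notes name FastQC and BWA. The genome build and miRNA release are not given in the sources used here. The authors deposited a normalized signal value per miRNA and library, and 100% of the values were whole multiples of a step per library within 1e-06. No count model was fitted, because control replicate 2 and heat stress replicate 2 did not meet the criterion applied for taking the steps as reads. Deposited fold changes and p-values of the authors' comparison, and a second table selected by it, were not used.

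Values were compared as log2(value + 1) by limma (version 3.58.1, R version 4.3.3), fitted to every miRNA whose mean value reached 1, with condition as the single term and p-values adjusted by Benjamini-Hochberg. The fit was tested on simulated data. Step ratios have exact binomial and single values exact Poisson 95% intervals, which hold only if a step is a read. Named miRNAs were the whole family, the leading members of 2 other families, a set of tissue markers and the 3 most alike to miR-30d-5p. Members and lists were chosen with earlier results of these data known. The comparison of arms was added after the values were seen. Alternatives were the added value, the filter, scaling by library totals, the variance prior, a replicate block and leaving out each library. Figures were drawn with matplotlib (version 3.10.9).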

Additional observations from a re-analysis of the deposited data

How the results depend on the processing

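The number of miR-30 members past the threshold was 0 with all 4 libraries, 1 with no filter (miR-30b-5p, with 16 higher and 10 lower of all 389 miRNAs) and 1 with a minimum mean value of 10 (miR-30e-5p, with 8 members tested). Leaving out single libraries gave 0 to 2, with the lone library of a group assumed to vary like the others. Over all miRNAs, 14 higher and 9 lower became 14 higher and 2 lower with 0.1 added, 6 higher and 8 lower with a minimum mean value of 10, 6 higher and 10 lower when the variance prior followed the mean, and 10 higher and 4 lower with the replicate block. Leaving out single libraries gave 10 to 39 higher and 3 to 27 lower. The log2 change of miR-30d-5p was -0.063 when scaled by library totals and -0.018 when the 5 most abundant miRNAs were left out of the totals, and ran from -0.17 to 0.24 over the fits without a library. MiR-615-3p gave -0.083 and -0.038 in these scalings, and -0.16 to 0.20 without a library. The sign also differed between fits without a library for miR-30c-5p (-0.22 to 0.46), miR-30a-5p (-0.42 to 0.19) and miR-103-3p (-0.16 to 0.40), and the fitted value of miR-30b-3p, which is no fold, ran from 0 to 2.81. The cause was not tested. MiR-30e-5p kept its sign (-1.99 to -1.57), as did miR-30e-3p (0.92 to 1.57). The alternatives for the arm ratio of miR-30e were chosen after seeing the data, and with all 4 libraries gave -3.29 (0.1 added) and -3.03 (variance prior and replicate block), none past the threshold. Library totals moved the median of all miRNAs from 0.12 to 0.022. Whether same-numbered libraries shared a batch or culture is not given in the sources used here. Their deviations over 313 miRNAs had a correlation of -0.019, which cannot show that nothing was shared. The replicate block gave 0 members past the threshold. For the 4 members at 0 in a library, 3 reads there cannot be told from none.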
